A study of Mus musculus with 10 samples.

Results

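The neuronal cytoskeleton was followed here through 10 genes fixed by name in the deposited gene counts. They are the neurofilament subunit genes Nefl, Nefm and Nefh, the alpha-internexin gene Ina, the microtubule-associated protein genes Map2, Mapt and Map1b, the growth cone gene Gap43, and the neurensin genes Nrsn1 and Nrsn2. All 10 of them were found among the 30935 genes of the table by matching the symbols to Entrez identifiers, and all 10 passed the filter on low counts that left 15488 tested genes. The count of each ran from 291 to 61342 reads per library.

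The libraries came from cerebral cortex of mice at postnatal day 8, 5 from wild-type mice (Rbfox1 +/+, replicates 2, 4, 5, 6 and 7) and 5 from mice with the element 2xHAR.505 of the Rbfox1 locus deleted on both alleles (Rbfox1 ΔHAR.505/ΔHAR.505, with the genotype label 2xHAR.505 Knockout, replicates 1, 3, 5, 6 and 8, called knockout here). The deleted element is a human accelerated region, a conserved sequence that changed quickly in the human lineage. The groups share tissue and age. The labels state no strain, sex or litter, and call the samples of a genotype independent. Counts of Y-linked genes exceeded those of Xist in 1 wild-type and 2 knockout libraries, and this split is the sex term of a later refit. The gene counts do not cover the noncoding element, so they do not check the genotype labels. Rbfox1 itself ranged from 205 to 238 CPM in wild-type and from 191 to 247 CPM in knockout libraries, where CPM is the count scaled to a common library total.

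Axons and dendrites are held open by microtubules and by intermediate filaments. In growing axons, GAP-43 sits at the growth cone membrane and MAP1B binds the dynamic microtubules of the extending shaft. As axons mature, neurofilaments of light, medium and heavy chains fill the shaft and set its calibre. Alpha-internexin joins these filaments and appears early in development, while the heavy chain accumulates late. MAP2 marks dendrites and tau, the product of Mapt, binds axonal microtubules. The neurensins are membrane proteins of vesicles in neurites.

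In wild-type and knockout cortex alike, the growth genes stood above the mature filament genes. Read counts rise with transcript length, so levels of different genes were compared as CPM per kilobase of the longest annotated transcript. On that scale Gap43 was highest in wild type at 671 ± 23.2 (SD, n = 5), followed by Map2 at 307 ± 12.5, Mapt at 249.8 ± 10.3 and Map1b at 209 ± 15.7. Ina stood at 82.8 ± 0.966, Nefl at 65.3 ± 3.46, Nrsn1 at 55.9 ± 4.04 and Nefm at 50.2 ± 3.57. Nrsn2 at 15.1 ± 1.003 and Nefh at 9.47 ± 0.807 were lowest.

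Most steps in this order held in each of the 10 libraries. Nefl exceeded Nrsn1 in 8 libraries and Nrsn1 exceeded Nefm in 9, so the order of these 3 was not fixed. The ranges over all libraries also overlapped for Mapt and Map1b and for Nrsn2 and Nefh, although within each library the first of each pair was the higher. With the union of all annotated exons as the length, Map2 moved below Mapt and Map1b (117 ± 4.75 CPM per kilobase in wild type), because its annotated exons total 16449 bases against 6258 in its longest transcript. The levels per kilobase of the 3 microtubule genes therefore depend on the length that is used.

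**Figure D1:**
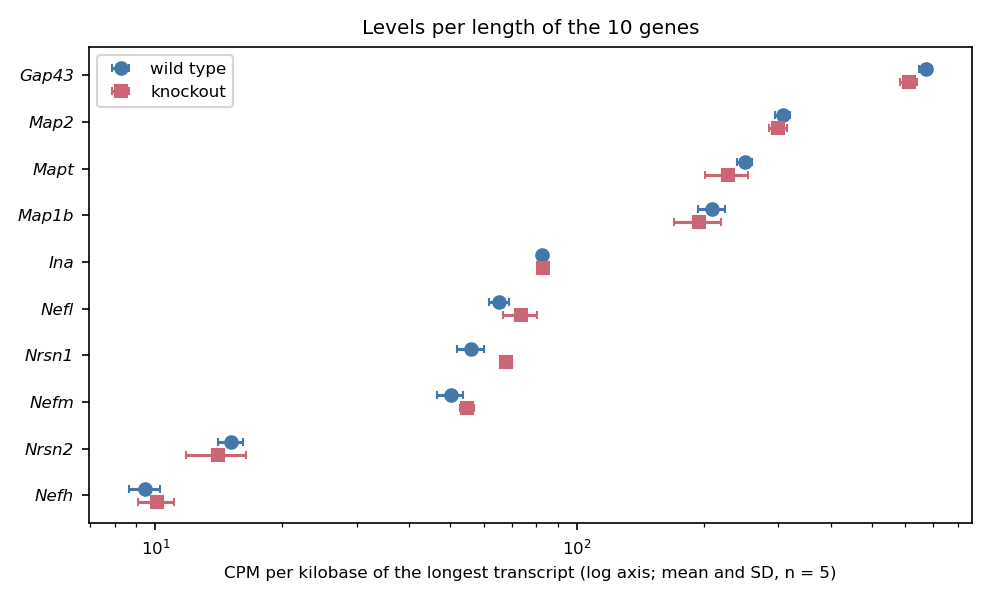
Levels of the 10 genes per length. The horizontal log axis gives CPM per kilobase of the longest annotated transcript, and points with bars are the mean and SD of 5 wild-type (circles) or 5 knockout (squares) libraries. Gap43 stands highest, at 671 in wild type, and Nefh lowest, at 9.47.

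Gap43 exceeded Nefh per kilobase by 51.9- to 79.2-fold over the 10 libraries, and Nefm by 10.9- to 15.1-fold. Map1b exceeded Nefh by 17.8- to 25.2-fold and Nefm by 2.86- to 4.80-fold. The day 8 cortex thus held more transcript of both growth genes than of both mature filament genes in every library of either genotype. With exon unions the lowest of these ratios, Map1b over Nefm, ran from 3.35 to 5.62.

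Within the 4 filament genes, alpha-internexin had the highest level per kilobase of the longest transcript and the heavy chain the lowest. Ina made up 39.9% ± 0.947 of their summed level per kilobase in wild type and 37.5% ± 1.28 in knockout (SD, n = 5 each). Nefl made up 31.5% ± 1.25 and 33.1% ± 1.83, Nefm 24.1% ± 1.13 and 24.8% ± 0.922, and Nefh 4.55% ± 0.254 and 4.56% ± 0.453. These shares were described without a test, and those of Ina overlapped between the genotypes, with knockout replicate 8 at 38.6% and wild-type replicate 5 at 38.5%. Exons of Nefl and Nefm overlap on opposite strands over 1108 bases, and those of Ina overlap Nt5c2 over 456 bases. How reads there were counted is not known, and full lengths were used. The order of Ina and Nefl could therefore depend on it.

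Between the genotypes, Nrsn1 was the only gene of the 10 to pass the edgeR test over all genes. It rose in knockout cortex by 1.21-fold (95% interval 1.13 to 1.30). The edgeR call was lost without wild-type replicate 2 (adjusted p = 0.0624), without knockout replicates 3, 5 and 6 (0.0725), and with the level of choroid plexus or of striatal markers as a covariate (0.482 and 0.936). Both marker levels were lower on average in knockout, so the covariate fits cannot separate them from genotype. The other 9 did not pass the edgeR quasi-likelihood test after Benjamini-Hochberg adjustment over all genes, which does not show them unchanged. That is 1 of 10, higher, and 0 lower, where 0.381% of all tested genes passed in either direction, 0.187% higher and 0.194% lower. Before adjustment, 5 of the 10 had an edgeR p under 0.05: Nrsn1, Nefl and Nefm on the higher side and Gap43 and Mapt on the lower, where 8.71% of all tested genes did, 4.19% higher and 4.52% lower. The median log2 fold change of the 10 was -0.015, against -0.0021 over all tested genes. The 10 genes were chosen with earlier results of these data known, so their counts beside the shares over all genes cannot show an enrichment.

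**Figure D2:**
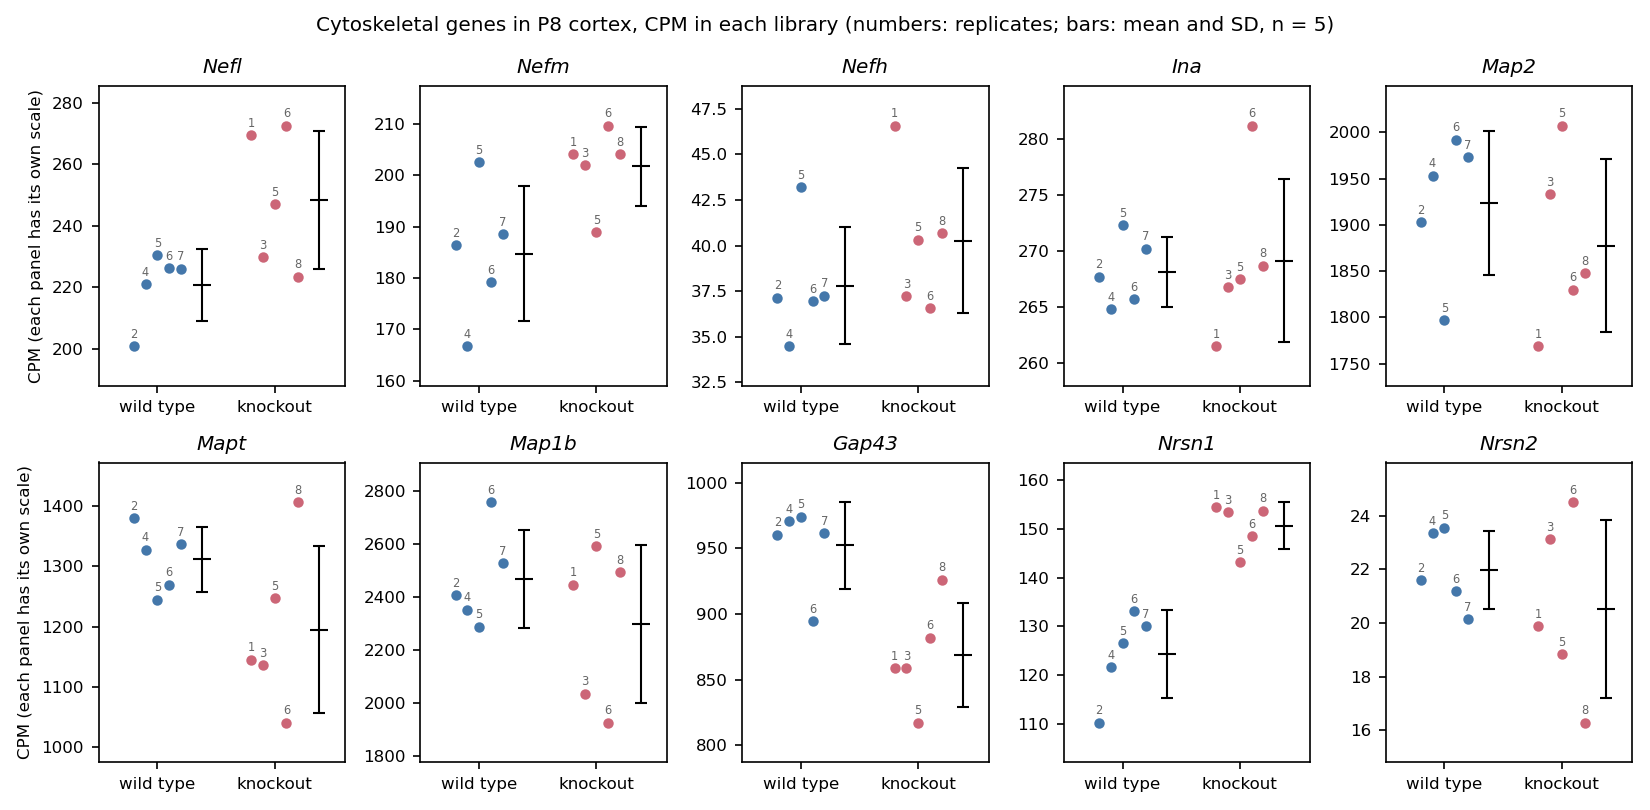
CPM of each gene in each library, with 1 panel per gene and its own vertical scale that does not start at 0. Points are libraries with their replicate numbers, and bars are the mean and SD of 5. Only in the Nrsn1 panel do the groups not overlap, with wild type at or below 133 and knockout at or above 143 CPM.

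Nrsn1, the gene of the vesicle membrane protein neurensin-1, stood at 110.2, 122, 127, 133 and 130.1 CPM in wild-type replicates 2, 4, 5, 6 and 7. In knockout replicates 1, 3, 5, 6 and 8 it stood at 154, 153, 143, 148 and 154 CPM. Every knockout library was above every wild-type library, a separation without overlap that 1.83% of all tested genes showed in either direction and 0.93% on the higher side. The log2 fold change was 0.28 (SE 0.052, adjusted p = 0.00990), and Nrsn1 had been called in an earlier fit of these data, so this is no independent support. Wild-type replicate 2 was the lowest library, and without it the log2 fold change was 0.24 with an adjusted p of 0.0624. The call held in the 9 other fits that left out 1 library.

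The upstream sequences of Nrsn1 and Nrsn2 are shown because the genes are relatives with different levels. They are windows before 1 RefSeq start of each gene in GRCm38.p6, trimmed to bases outside annotated untranslated regions, both on the minus strand. Capitals mark the GC box GGGCGG or its complement CCGCCC, searched on both strands. The Nrsn1 window is chr13:25270083-25270246 and the Nrsn2 window chr2:152376639-152376855. GENCODE M21 places the first base of the Nrsn1 gene at 25270502, so its window lies inside that gene model and precedes an internal start. The motif counts of Nrsn1 hold for this start alone.
Nrsn1: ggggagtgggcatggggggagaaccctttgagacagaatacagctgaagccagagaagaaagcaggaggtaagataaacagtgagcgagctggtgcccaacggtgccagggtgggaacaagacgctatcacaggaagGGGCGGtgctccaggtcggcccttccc
Nrsn2: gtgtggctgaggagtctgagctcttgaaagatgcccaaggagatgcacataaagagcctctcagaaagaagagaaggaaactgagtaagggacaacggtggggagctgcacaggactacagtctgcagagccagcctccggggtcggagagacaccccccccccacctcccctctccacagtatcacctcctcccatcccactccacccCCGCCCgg
Each window held 1 GC box. In the whole 250 bases before these starts, Nrsn1 had 2 GC boxes and Nrsn2 had 1, and 32.7% of the windows of that length over all genes held at least 1. The same 250 bases of Nrsn1 also held 1 CACGTG (in 6.02% of all windows) and 1 CAGCTG (in 13.0%), both E-box forms, and those of Nrsn2 held neither. TATAAA and CCAAT were in neither. Windows for 3 more of the 10 genes were in the reference table: Map2 had 5 GC boxes, Ina 2 and Map1b 1, and Map1b alone of these 5 genes held TATAAA, which 12.4% of all windows did. A match is a description of letters only.

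Nrsn2, which encodes the related neurensin-2, was lower than Nrsn1 by 3.34- to 6.19-fold per kilobase over the 10 libraries. Wild-type values were 21.6, 23.4, 23.6, 21.2 and 20.1 CPM, and knockout values were 19.9, 23.1, 18.8, 24.5 and 16.3 CPM. The groups overlapped, with knockout replicate 6 highest and replicate 8 lowest of all. Its log2 fold change of -0.10 (SE 0.10, adjusted p = 0.879) had a fold interval of 0.811 to 1.08. The log2 value was -0.02 without knockout replicate 8 and -0.17 without knockout replicate 6.

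Both neurensin genes were also set against each other, as the log2 ratio of Nrsn1 to Nrsn2 CPM in each library, in which transcript length cancels between genotypes. The ratio was 2.35, 2.38, 2.42, 2.65 and 2.69 in wild type and 2.95, 2.73, 2.92, 2.59 and 3.23 in knockout, in replicate order. Knockout replicate 6 lay below wild-type replicates 6 and 7, so the groups overlapped. The mean was 2.49 ± 0.159 in wild type and 2.88 ± 0.243 in knockout (SD, n = 5 each), a difference of 0.39 that ran from 0.30 to 0.46 without any 1 library. No p is given, because the pair was named with the higher level of Nrsn1 already known and the ratio repeats much of it.

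**Figure D3:**
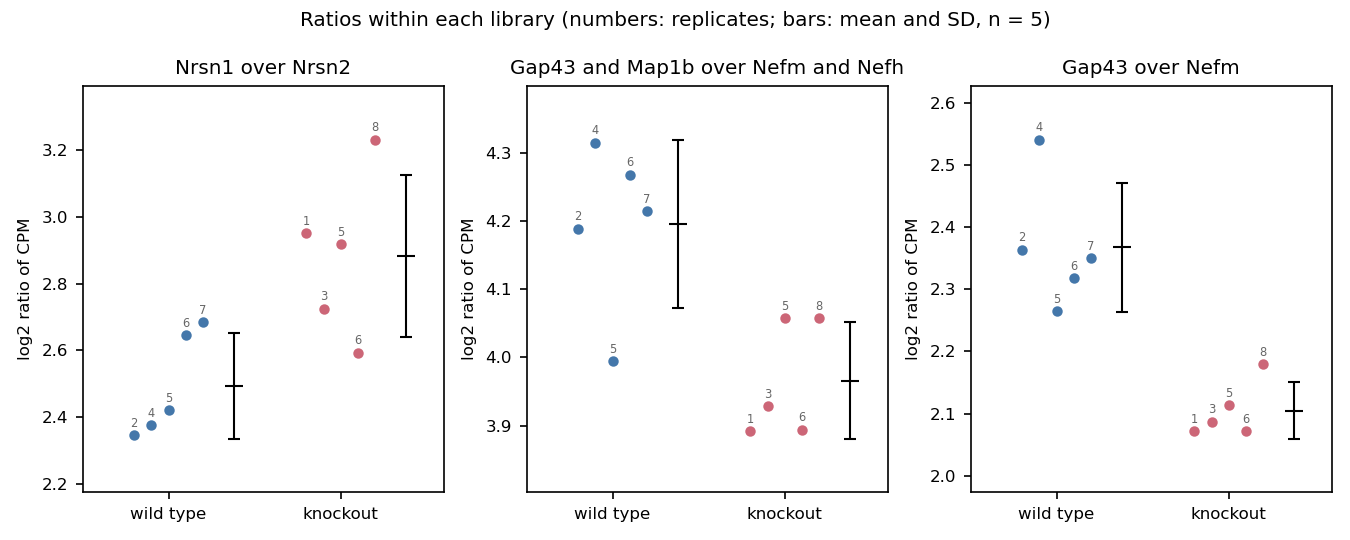
Log2 ratios of CPM within each library, for Nrsn1 over Nrsn2, for the mean of Gap43 and Map1b over the mean of Nefm and Nefh, and for Gap43 over Nefm. Points are libraries with replicate numbers and bars the mean and SD of 5. Knockout libraries lie higher on average in the first panel (2.88 against 2.49) and lower in the second (3.97 against 4.20) and the third (2.11 against 2.37), and the groups overlap in the first and second. The third panel shows the only single pair of growth and mature genes without overlap.

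Gap43, which encodes the growth-associated protein of growth cones, stood at 960.4, 970.5, 974, 894 and 962 CPM in wild-type libraries and at 859, 859, 817, 882 and 926 CPM in knockout libraries. All 5 knockout values were below the wild-type median, and 4 were below the lowest wild-type library. Knockout replicate 8 alone lay inside the wild-type range. Its fold of 0.912 (interval 0.859 to 0.969, log2 value -0.13, SE 0.043) had an adjusted p of 0.256.

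Map1b, the early microtubule-binding gene of growing axons, stood at 2408, 2353, 2288, 2758 and 2529 CPM in wild type and 2447, 2035, 2593, 1926 and 2494 CPM in knockout. Knockout replicates 3 and 6 were the lowest of all libraries, and the other 3 lay within the wild-type range. The log2 fold change was -0.10 (SE 0.090, adjusted p = 0.855), and it was -0.04 without knockout replicate 6, -0.06 without knockout replicate 3 and -0.05 without wild-type replicate 6. Map1b has a long transcript of 11808 bases. The 1447 tested genes with the largest annotated exon unions (at least 10047 bases) had a median log2 deviation from the mean of all libraries of -0.032 and -0.069 in knockout replicates 3 and 6. In wild-type replicate 6 and knockout replicate 5, the highest libraries for Map1b, it was 0.078 and 0.066. The part of this shift in the Map1b values was not tested.

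Nefl, the light chain gene on which neurofilaments assemble, stood at 201, 221, 230.4, 226 and 226 CPM in wild type and at 269.5, 229.8, 247, 273 and 223 CPM in knockout. Knockout replicates 1, 5 and 6 exceeded all wild-type libraries, and replicates 3 and 8 did not. Its fold of 1.12 (interval 1.04 to 1.22, log2 value 0.17, SE 0.055) had an adjusted p of 0.259.

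Nefm, the medium chain gene, stood at 186, 167, 203, 179 and 189 CPM in wild type and at 204, 202, 189, 209.7 and 204 CPM in knockout. All 5 knockout libraries were above the wild-type median, and 3 were above the highest wild-type library. On the log2 scale Nefm differed by 0.13 (SE 0.051, adjusted p = 0.416). In the reference annotation, exons of Nefl and Nefm overlap on opposite strands of chromosome 14 over 1108 bases. No source used here gives the strand setting of the counting. Whether reads there counted for the right gene, for the other or for neither is therefore not known. Exonic overlaps with opposite-strand genes were also annotated for Ina (456 bases, with Nt5c2), Nrsn2 (241 bases, with Gm14164) and Map2 (124 bases, with Gm10558).

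Nefh, the heavy chain gene of large mature axons, stood at 37.1, 34.5, 43.2, 37.0 and 37.2 CPM in wild type and at 46.6, 37.2, 40.3, 36.6 and 40.7 CPM in knockout. The groups overlapped, and the highest libraries were wild-type replicate 5 and knockout replicate 1. The log2 fold change was 0.09 (SE 0.076, adjusted p = 0.827), with a fold interval of 0.957 to 1.19. The log2 value was 0.03 without knockout replicate 1 and 0.14 without wild-type replicate 5. Ina, the most even of the 10 genes, ran from 265 to 272 CPM in wild type and from 261 to 281 CPM in knockout. Its log2 fold change was 0.0054 (SE 0.043, adjusted p = 0.991), with a fold interval of 0.945 to 1.07.

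Growth genes were then set against mature axon genes in each library, as the mean log2 CPM of Gap43 and Map1b minus that of Nefm and Nefh. The values were 4.19, 4.32, 3.99, 4.27 and 4.21 in wild type and 3.89, 3.93, 4.06, 3.89 and 4.06 in knockout. Wild-type replicate 5 lay among the knockout libraries, and the other 4 wild-type libraries lay above all knockout libraries. The mean was 4.20 ± 0.123 in wild type and 3.97 ± 0.0850 in knockout (SD, n = 5 each), a difference of -0.23. No p is given, because the value is a score over genes chosen with earlier results known. Without any 1 library the difference ran from -0.28 to -0.20. Of the 4 single pairs, Gap43 over Nefm had no overlap between the genotypes, at 2.26 to 2.54 in wild type and 2.07 to 2.18 in knockout, and the other 3 pairs overlapped. How often gene pairs over the whole table show no overlap was not computed, so this is a description only. Alone, both genes overlapped between the genotypes, and neither passed the edgeR test (adjusted p = 0.256 for Gap43 and 0.416 for Nefm).

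Map2, the dendritic microtubule gene, ran from 1797 to 1992 CPM in wild type and from 1769 to 2007 CPM in knockout, and differed by -0.04 on the log2 scale (SE 0.042, adjusted p = 0.900). Without 1 library this ran from -0.06 (knockout replicate 5 left out) to -0.01 (knockout replicate 1 left out). Mapt, the tau gene, stood at 1380, 1328, 1245, 1270 and 1337 CPM in wild type and at 1145, 1136, 1247, 1040 and 1407 CPM in knockout. Knockout replicates 1, 3 and 6 were below every wild-type library, while replicate 8 was the highest of all 10. On the log2 scale Mapt differed by -0.13 (SE 0.061, adjusted p = 0.533), and by -0.09 without knockout replicate 6.

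**Figure D4:**
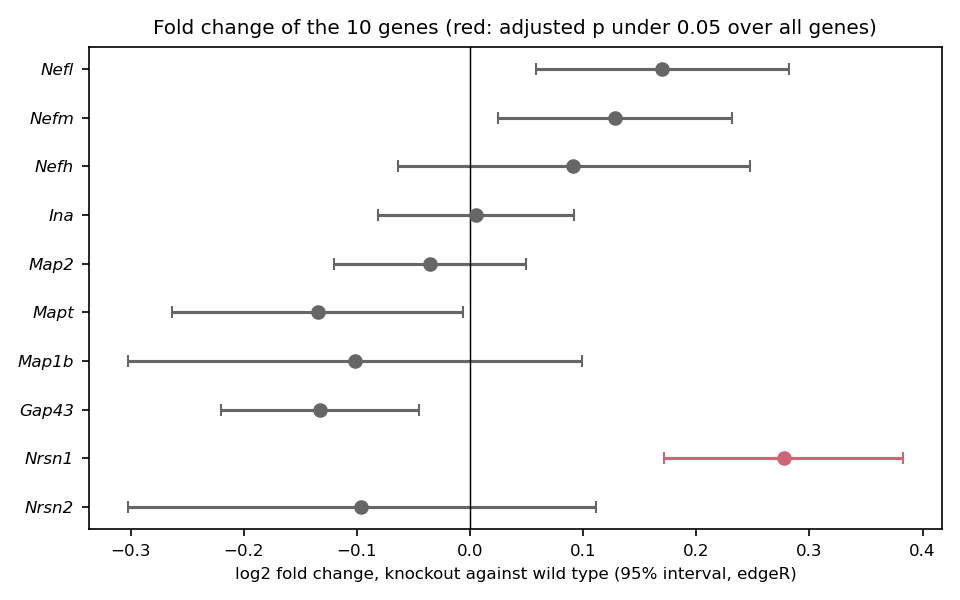
Log2 fold change of knockout against wild type for each of the 10 genes from the edgeR fit, with 95% intervals that are not corrected for the number of genes. Nrsn1 (0.28) passed the test over all genes, and the intervals of Nefl, Nefm, Mapt and Gap43 leave out 0 but did not pass it.

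Knockout replicate 8 was the highest knockout library for Mapt and Gap43 and the lowest for Nefl, close to replicate 3, and for Nrsn2. Without it, 3 of the 10 genes passed the edgeR test: Nrsn1, Nefl (log2 fold change 0.21, adjusted p = 0.0353) and Mapt (-0.20, adjusted p = 0.0171), while Gap43 stood at an adjusted p of 0.0508. In that fit 182 genes of all passed, against 59 with all libraries.

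Other cytoskeletal genes were taken from 9 lists, 143 genes in all, of which 141 were tested. None of the 141 passed the edgeR test over all genes, where 6 higher and 10 lower had an unadjusted p under 0.05, which is 11.3% of them against 8.71% of all tested genes. With DESeq2 1 passed (Tppp3), with limma-voom 0, and with no filter on low counts 4 (Tppp, Tppp3, Crmp1 and Macf1). Over all genes 124, 45 and 171 passed in these settings. Without knockout replicate 8, 7 passed: Tppp was higher, and Tppp3, Tuba1c, Tubb2b, Tubb3, Stmn1 and Crmp1 were lower. In that fit 182 genes of all passed, 97 of them higher. Without wild-type replicate 6 Tppp3 passed, where 61 genes of all did.

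Of 14 tubulin genes, 1 was higher and 3 were lower at an unadjusted p under 0.05, with a list median of -0.046. Tuba4a, an alpha-tubulin gene, stood at 0.13 on the log2 scale (SE 0.050), and Tubb3, the neuronal beta-tubulin gene, at -0.13 (SE 0.050). Tubb3 stood at 1493, 1428, 1377, 1301 and 1443 CPM in wild type and at 1274, 1288, 1246, 1175 and 1468 CPM in knockout. Tubb2b and Tuba1c, chosen after their values were seen, also had their highest knockout library in replicate 8, at 2950 and 1365 CPM. The other knockout libraries held 2321 to 2409 CPM of Tubb2b and 1044 to 1285 CPM of Tuba1c.

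Of 30 other microtubule-associated protein genes, 2 were higher and 1 was lower at an unadjusted p under 0.05, with a median of -0.0069. Tppp3, a member of the tubulin polymerization-promoting family, came nearest to the threshold over all genes. It stood at 55.9, 48.4, 54.5, 38.9 and 47.8 CPM in wild type and at 39.8, 35.0, 39.7, 40.2 and 40.6 CPM in knockout. Wild-type replicate 6 lay among the knockout libraries, and the log2 fold change was -0.33 (SE 0.080, adjusted p = 0.0692). Its relative Tppp, expressed in myelinating cells, differed by 0.19 on that scale (SE 0.052, adjusted p = 0.135).

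Among 9 genes of stathmins, which bind free tubulin, and collapsin response mediators, which act in axon guidance, 0 were higher and 2 were lower at an unadjusted p under 0.05, with a median of -0.062. Crmp1 stood at 1230 to 1354 CPM in wild type and at 1024 to 1158 CPM in knockout replicates 1, 3, 5 and 6, with 1343 CPM in replicate 8 (log2 fold change -0.17, SE 0.058, adjusted p = 0.330). Stmn1 differed by -0.16 (SE 0.074). Among 18 other axon growth genes, which share Tubb3, Stmn2 and Dpysl3 with the lists above, 1 was higher and 2 were lower, with a median of -0.019 and the membrane-bound kinase substrate gene Marcks at -0.11 (SE 0.044).

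Among 18 other mature axon and node of Ranvier genes, 16 were tested, 0 were higher and 1 was lower at an unadjusted p under 0.05, with a median of -0.019. The lower one was Spp1, the osteopontin gene, at 2.90 ± 0.786 and 1.62 ± 0.640 CPM (SD, n = 5 each), while the axonal potassium channel gene Kcna1 differed by 0.25 on the log2 scale (SE 0.13). Of 10 other intermediate filament genes 1 was higher and 0 were lower (median -0.057), namely Prph, which encodes peripherin, at 0.29 (SE 0.14), and Lmnb2, a nuclear lamin gene, stood at -0.16. Of 7 genes of filament linkers and turnover 2 were lower (median -0.053), the ubiquitin ligase gene Trim2 (-0.13) and the cytoskeletal linker gene Macf1 (-0.18).

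Of 18 genes of tau and neurofilament kinases and phosphatases 1 was higher (median -0.011), Cdk5r2, which encodes an activator of the kinase CDK5, at 0.10 (SE 0.044), while Cdk5r1, the gene of the related activator p35, stood at -0.07. Of 22 axonal motor genes none had an unadjusted edgeR p under 0.05 (median 0.012), with the kinesin genes Kif3c at 0.08 and Klc1 at -0.07.

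**Figure D5:**
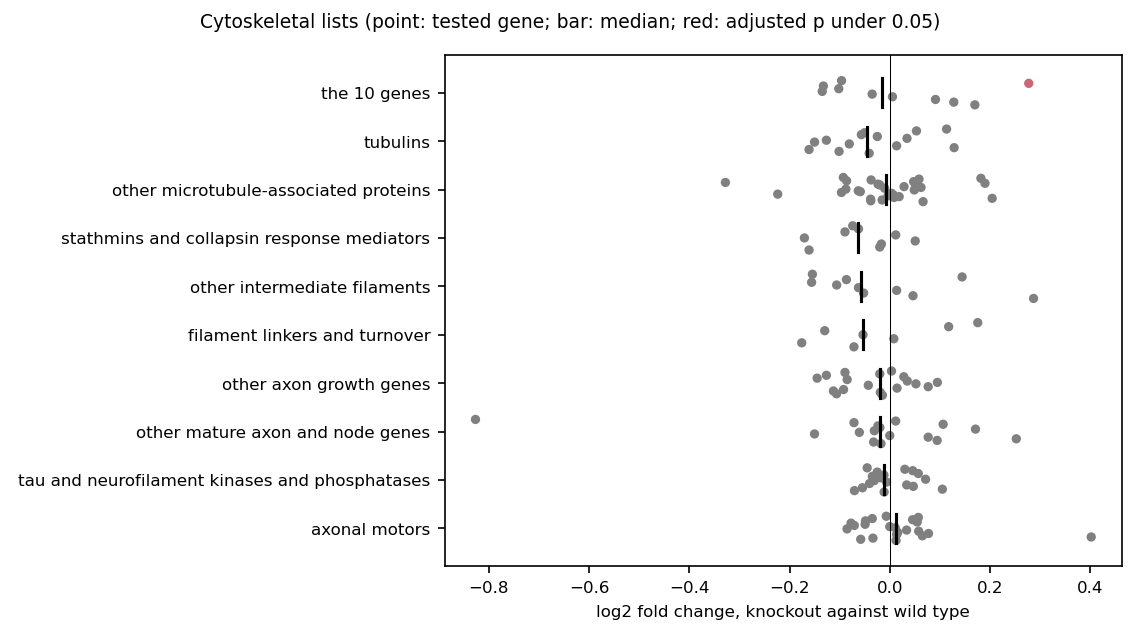
Log2 fold change of knockout against wild type for the 10 genes and for each tested gene of the 9 cytoskeletal lists. Points are genes, black bars are list medians, and red marks an adjusted p under 0.05 over all genes. Nrsn1 at 0.28 is the red point, and the list medians lie between -0.062 and 0.012.

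Cell type markers were summed in CPM per library, since in bulk tissue fewer cells of a type and less RNA per cell cannot be told apart. The 8 cortical excitatory markers, the check on the labelled tissue, summed to 2628 to 2826 in wild type and 2686 to 3188 in knockout, with none at 0 in any library. Layer 5 neuron markers summed to 579 to 639 and 586 to 679, interneuron markers to 650.3 to 735 and 539 to 657 (Slc32a1 lower over all genes), and thalamic markers to 172 to 214 and 163 to 198. Astrocyte markers summed to 3052 to 3534 and 3244 to 3798, oligodendrocyte lineage markers to 668 to 841 and 668 to 798, and red cell markers to 483 to 683 and 386 to 693. Folds lay below 1 in 7 of 8 interneuron, 5 of 6 tested thalamic and 5 of 5 red cell markers. They lay above 1 in 7 of 8 cortical excitatory, 6 of 7 astrocyte and 8 of 10 oligodendrocyte lineage markers. The 9 layer 5 markers were split, with 5 folds below 1 and 4 above. Striatal markers summed to 497 to 716 and 446 to 530.2, with a fold below 1 in 14 of 15 genes and 2 lower past the edgeR test, Six3 and Penk. Gng7, the highest of that list, stood at 224 CPM on average in wild type and 214 in knockout. Choroid plexus and ependymal markers summed to 382 to 465 and 142 to 387, with a fold below 1 in 14 of 15 genes and 2 lower past the test, Clic6 and Tmem72. Ttr, the highest of these, held 213 to 278 CPM in wild type and 0 to 200 in knockout. Of all 15488 tested genes, 7878 had a fold below 1 and 0.194% were lower past the test. Markers with 0 counts were Ttr, Otx2, Tmem212 and Isl1 in knockout replicate 3, Otx2 and Isl1 in knockout replicate 6, and the thalamic gene Gbx2 in 9 of the 10 libraries. As 3 counts of the library, a count of 0 allows up to 0.166 CPM in knockout replicate 3, from counting error alone.

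The striatal list and the choroid and ependymal list had the lowest medians of these lists, at log2 fold changes of -0.56 and -0.88, and each was used as a covariate. Both levels thus differed with genotype, and such a fit cannot separate them from it. Without a covariate the SE of Nrsn1 was 0.052. With the mean choroid and ependymal level as covariate, the log2 fold change of Nrsn1 was 0.30 (SE 0.083) with an adjusted p of 0.482. With the mean striatal level it was 0.29 (SE 0.094) with an adjusted p of 0.936. Over all genes, 0 passed the edgeR test in each of these fits, where 759 and 611 had an unadjusted p under 0.05. For other members the log2 fold changes with the choroid and with the striatal covariate were 0.28 and 0.30 for Nefh, 0.16 and 0.21 for Nefm, -0.32 and -0.24 for Nrsn2, -0.12 and -0.15 for Map2, -0.04 and -0.03 for Mapt, -0.09 and -0.06 for Gap43, and 0.05 and -0.04 for Map1b. The log2 fold changes of Nefl were 0.22 and 0.14, and those of Ina -0.015 and -0.00077. The edgeR p of Nefh before adjustment was 0.020 and 0.025, and after adjustment 0.886 and 0.999. Nefl had an unadjusted edgeR p of 0.017 with the choroid covariate (adjusted p = 0.886). Nefm had 0.030 with the striatal covariate (adjusted p = 0.999). Without knockout replicates 3, 5 and 6, the libraries with the lowest choroid sums, the log2 fold change of Nrsn1 was 0.31 (adjusted p = 0.0725), with 2 knockout libraries left.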

How the data were processed

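RNA was extracted with a Qiagen kit, per the labels' protocols. The authors deposited raw whole-number counts per gene for 10 libraries, made with HISAT2 and featureCounts on mm39, per the submitters' processing notes. For versions, annotation, strand setting and multiply aligned reads nothing is stated in those notes. Totals per library were 16479594 to 22391943 counts. Libraries of 1 genotype differed in pairs by more than sampling noise (chi-square per degree of freedom 4.10 to 13.9), so each counted as 1 replicate. P-values weigh the genotype difference against the spread between the libraries of a genotype.

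Genotypes were compared with edgeR 4.0.16 in R 4.3.3 (filterByExpr, TMM scaling, robust quasi-likelihood F test, genotype as the term, two-sided, Benjamini-Hochberg over 15488 genes, threshold 0.05). Standard errors came from the F statistic. Log2 CPM for ratios used a prior count of 2. Symbols came from a RefSeq table of GRCm38.p6, which matched 30648 identifiers, and lengths and overlaps from GENCODE M21 on GRCm38, not the authors' build. Alternatives included DESeq2 1.42.0 and limma-voom (limma 3.58.1). On simulated counts for this comparison (15488 genes), 35% of genes changed by 1.2-fold, 94.7% by 1.5-fold and 100% by 2-fold were recovered, with 11 false calls. The changed genes were drawn only from those with a mean above 10 CPM. The 10 genes, the 9 cytoskeletal lists and the 9 marker lists were chosen with earlier results of these data known. The text names the 10 genes, list genes past the threshold and the 2 with the smallest p of each cytoskeletal list. Of the marker lists it does not name every gene its rule takes.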

Additional observations from a re-analysis of the deposited data

Results flagged for a closer look

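A library that lay far from the other 4 of its genotype was sought for each of the 10 genes and 2 ratios. Among 24 such groups 1 was found, while about 1 in 20 would be by chance. Wild-type replicate 6 was lowest for Gap43, at 894 CPM, where the other wild-type libraries held 960.4 to 974 CPM.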

How the results depend on the processing

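Each of the 10 genes was refitted under 23 alternatives. Nrsn1 stayed higher in all 23 and passed the test in 18. It missed it without wild-type replicate 2, without knockout replicates 3, 5 and 6 (log2 fold change 0.31), with the choroid covariate (0.30), with the striatal covariate (0.29) and with the replicate block (0.17), and over the fits without 1 library it ran from 0.24 to 0.31. Nefl, Nefm, Mapt, Gap43 and Nrsn2 kept their direction in all 23. Reversed were Ina (-0.0011 with upper-quartile scaling, -0.011 without knockout replicate 6 in a range of -0.011 to 0.016 without 1 library, -0.015 without knockout replicates 3, 5 and 6, -0.015 with the choroid covariate, -0.00077 with the striatal covariate, -0.0010 with the sex term), Map1b (0.0038 without knockout replicates 3, 5 and 6, 0.049 with the choroid covariate) and, with the replicate block, Nefh (-0.056) and Map2 (0.020). The count of members past the test was 0 without knockout replicates 3, 5 and 6, with the replicate block and with either covariate, and 0 to 3 without 1 library. The count over all genes was 171 with no filter, 124 with DESeq2, 12 without knockout replicates 3, 5 and 6, 28 with the replicate block, 0 with either covariate, 28 with the sex term, and 15 to 182 without 1 library (wild-type replicate 2, 4 or 5 left out: 15, 21 or 17; knockout replicate 3, 6 or 8 left out: 17, 37 or 182). The count of cytoskeletal list genes was 4 with no filter, 1 with DESeq2 and 0 to 7 without 1 library. The cause of these shifts was not tested. The log2 Nrsn1/Nrsn2 difference was 0.30 to 0.46 without 1 library and the log2 growth/mature difference -0.28 to -0.20. The replicate block covers the 2 numbers that both genotypes share, 5 and 6, and leaves 1 residual degree of freedom. Deviations of same-numbered libraries correlated at -0.030 and -0.057, so the numbers were not taken to pair the animals. Within these numbers the ratio differences were 0.22 and -0.16. On simulated counts 35% of genes changed by 1.2-fold, drawn from those above 10 CPM, were recovered, so a change of that size can go uncalled. Recovery at the levels and spread of the 10 genes was not tested.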
